A study of Mus musculus with 28 samples.

Results

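The 6 genes described here, Maged1, Slain1, Slc16a12, Tgm4, Pmp22 and Tbx3, were chosen by how strongly their levels separated 5 BMP ligands in mouse small-intestinal organoids. They are 6 of 29413 genes in the table of BMP-treated organoids and 6 of 55416 in the table of Tgfb-treated organoids. Because their values with the BMP ligands selected them, those values are given as a description without a test. The Tgfb samples and their own controls are separate from the BMP samples, and there the genes were tested. Since the genes were named with earlier results of both tables known, those tests are not independent evidence.

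Organoids are epithelial cultures grown from crypts in a gel matrix, here of WT C57BL/6 genotype in every group. In the first table, 4 untreated samples stood beside 4 with recombinant Bmp2 and 3 each with recombinant Bmp3, Bmp4, Bmp5 or Bmp7, all at 500 ng/ml for 24 h. The second table held 3 untreated samples and 3 with recombinant Tgfb at 500 ng/ml for 24 h. The last table held PdgfraH2BeGFP mesenchymal cells of the duodenum, 1 sample fresh and 1 after immortalisation with a viral gene and sorting. The ligands are written below as BMP2, BMP3, BMP4, BMP5, BMP7 and Tgfb.

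BMP ligands bind pairs of type I and type II serine/threonine kinase receptors, which phosphorylate SMAD1, SMAD5 and SMAD9, whereas TGFb receptors act mainly through SMAD2 and SMAD3. Both classes of SMAD enter the nucleus with SMAD4 and switch target genes such as Id1. In the gut, BMP signalling is weak at the crypt base, where stem cells divide, and strong towards the villus, where enterocytes mature. BMP3 is known as a ligand that can oppose other BMPs and signals weakly or not at all through SMAD1 and SMAD5.

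RefSeq promoter windows of 300 bases, from 250 before to 50 after an annotated start, were found for 5 of the 6 genes. They are on build GRCm38.p6, whereas the submitters' processing notes name GRCm39, so the coordinates serve for the sequences only. The windows were searched on both strands for GGCGCC, a GC-rich element bound by SMAD1 and SMAD5, which reads the same on both strands. It was found in the windows of Slc16a12, Tgm4 and Pmp22, against 11.9% of all 32851 windows and 13.4% of all 27025 genes. Pmp22 had 4 windows in which a match could occur, and each other gene had 1. The 4 windows that hold GGCGCC are printed 5′ to 3′ on the strand of the gene, with these letters in capitals.
Slc16a12, chr19:34747279-34747578, minus strand: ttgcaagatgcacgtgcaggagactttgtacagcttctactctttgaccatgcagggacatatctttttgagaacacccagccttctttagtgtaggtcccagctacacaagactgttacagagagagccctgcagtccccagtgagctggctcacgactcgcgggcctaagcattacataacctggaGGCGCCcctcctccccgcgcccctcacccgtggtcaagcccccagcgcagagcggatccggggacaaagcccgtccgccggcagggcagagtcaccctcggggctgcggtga
Tgm4, chr9:123034491-123034790, plus strand: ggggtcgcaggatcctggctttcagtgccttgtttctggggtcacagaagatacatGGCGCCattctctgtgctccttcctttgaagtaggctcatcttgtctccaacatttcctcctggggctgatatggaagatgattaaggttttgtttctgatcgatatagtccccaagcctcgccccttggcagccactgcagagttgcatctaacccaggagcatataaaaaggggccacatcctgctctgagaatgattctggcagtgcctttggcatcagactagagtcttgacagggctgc
Pmp22 start 2, chr11:63131207-63131506, plus strand: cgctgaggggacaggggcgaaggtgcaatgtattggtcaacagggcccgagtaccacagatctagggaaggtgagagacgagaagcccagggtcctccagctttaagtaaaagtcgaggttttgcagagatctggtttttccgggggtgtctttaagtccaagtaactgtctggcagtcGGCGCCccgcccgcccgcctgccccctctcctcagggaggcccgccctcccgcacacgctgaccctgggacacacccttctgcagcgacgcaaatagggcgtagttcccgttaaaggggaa
Pmp22 start 4, chr11:63132553-63132852, plus strand: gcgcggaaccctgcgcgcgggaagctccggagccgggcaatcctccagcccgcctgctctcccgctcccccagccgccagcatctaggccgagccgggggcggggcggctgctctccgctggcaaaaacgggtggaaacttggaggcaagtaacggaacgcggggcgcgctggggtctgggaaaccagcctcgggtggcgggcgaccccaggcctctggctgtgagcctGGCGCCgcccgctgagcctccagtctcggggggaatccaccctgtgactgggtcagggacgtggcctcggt
The element began 62 bases before the start in Slc16a12, 194 before it in Tgm4, and 71 and 21 before starts 2 and 4 of Pmp22. The windows of Maged1, of Slain1 and of the other two Pmp22 starts do not hold these letters.

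The windows differed in base composition too. Tgm4 had 4 CpG dinucleotides and 51% GC, and its ratio of observed to expected CpG was 0.205. Its window also held TATAAA 30 bases before the start, a match found in 13.6% of all windows. Slain1 had 25 CpG dinucleotides and 67.7% GC, Maged1 20 and 60.3%, and Slc16a12 16 and 60%. The 4 Pmp22 windows ran from 3 to 30 CpG dinucleotides. The shorter CAGAC motif, the SMAD box, was found in Slain1, Tgm4 and 3 Pmp22 windows, and in 49.6% of all windows. CTTTGA, a core of TCF/LEF sites, was found in Slc16a12 and Tgm4 and in 16% of all windows. AGGTGT, a core of T-box sites present in 13.7% of all windows, was found in none of the members' windows. A match is a description of letters and no evidence of a bound site.

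Values in the BMP table are normalized counts. The samples held 21354602 to 24781361 recovered reads, each read standing for 0.826 to 1.28 normalized counts. With edgeR, limma and DESeq2 fits across all genes, BMP3 gave 0, 0 and 1 genes past the threshold, and 110 of 14746 genes had an unadjusted p under 0.05 by limma. Stem cell markers (Lgr5, Olfm4, Ascl2 and Smoc2) summed to 95738 to 120015 normalized counts in controls, 93836 to 115119 with BMP3, 24949 to 72914 with BMP5, 21589 to 25853 with BMP7, 1779 to 3474 with BMP4 and 136 to 678 with BMP2. Enterocyte markers summed to 354210 to 437800 with BMP4 and to 91262 at most in the other 5 groups. In bulk samples, fewer cells of a type and less RNA per cell cannot be told apart. Rescaling every sample to the same total moved the median log2 difference of all genes from -0.03 to -0.48 with BMP2 and from 0.04 to -0.35 with BMP4, so differences of those ligands are relative to the authors' scaling.

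Across the 6 genes, BMP4 and BMP2 accounted for most of the separation, BMP7 and BMP5 mostly took places between them and control, and BMP3 samples overlapped control for all 6 genes. For each gene, the ligand farthest from the mean of the other 4 was found on the scale of log2(normalized count + 1). It was BMP4 for Maged1 (-3.08 log2 units), Slain1 (-2.49) and Tbx3 (2.64). It was BMP2 for Slc16a12 (-6.23) and Tgm4 (4.43), and BMP3 for Pmp22 (-6.995). The farthest ligand's samples overlapped those of another ligand for Tgm4 only.

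**Figure D1:**
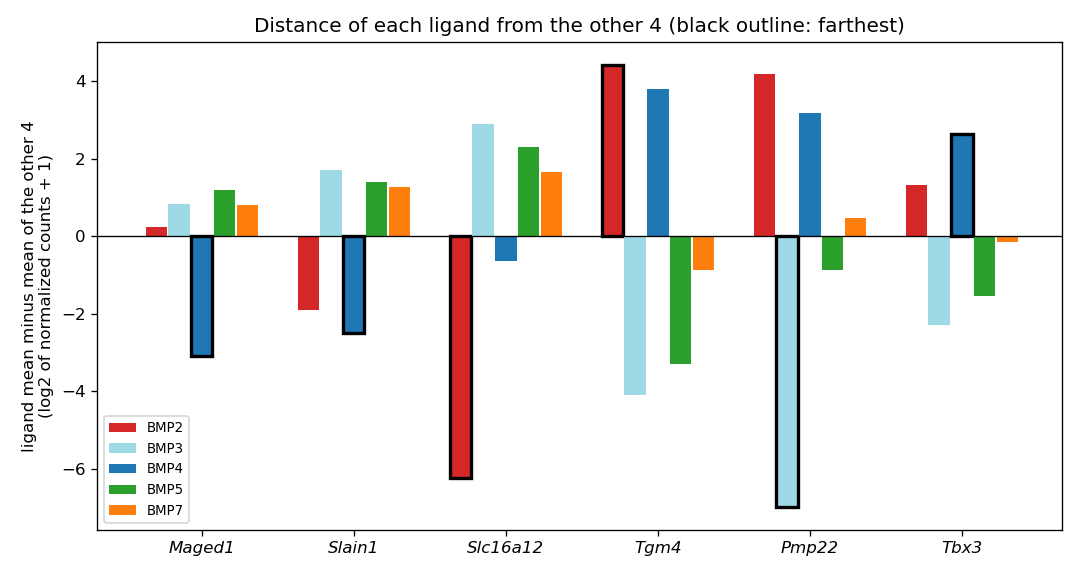
For each of the 6 genes, bars give the mean of each of 5 ligands minus the mean of the other 4, in log2 of normalized counts plus 1, and a black outline marks the farthest ligand. BMP4 is outlined for Maged1, Slain1 and Tbx3, BMP2 for Slc16a12 and Tgm4, and BMP3 for Pmp22, where BMP2 stands 4.20 and BMP4 3.19 above the others.

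A moderated F-test among the 5 ligands was run on the whole table to place the genes. It called 84.1% of 14746 genes, so being called sets no gene apart. Maged1 ranked 1, Slain1 ranked 3 and Slc16a12 ranked 4, with the unchosen Cd44 and Cdca7 at ranks 2 and 5. Tbx3 ranked 157, Pmp22 ranked 669 and Tgm4 ranked 1057, although their group means spanned 3.94, 8.96 and 7.33 log2 units. The spread between replicates of a group, as a pooled SD, was 0.11 log2 units for Maged1 and 0.10 for Slain1, against 0.68 for Pmp22 and 0.62 for Tgm4. These ranks describe the choice and support nothing beyond it.

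**Figure D2:**
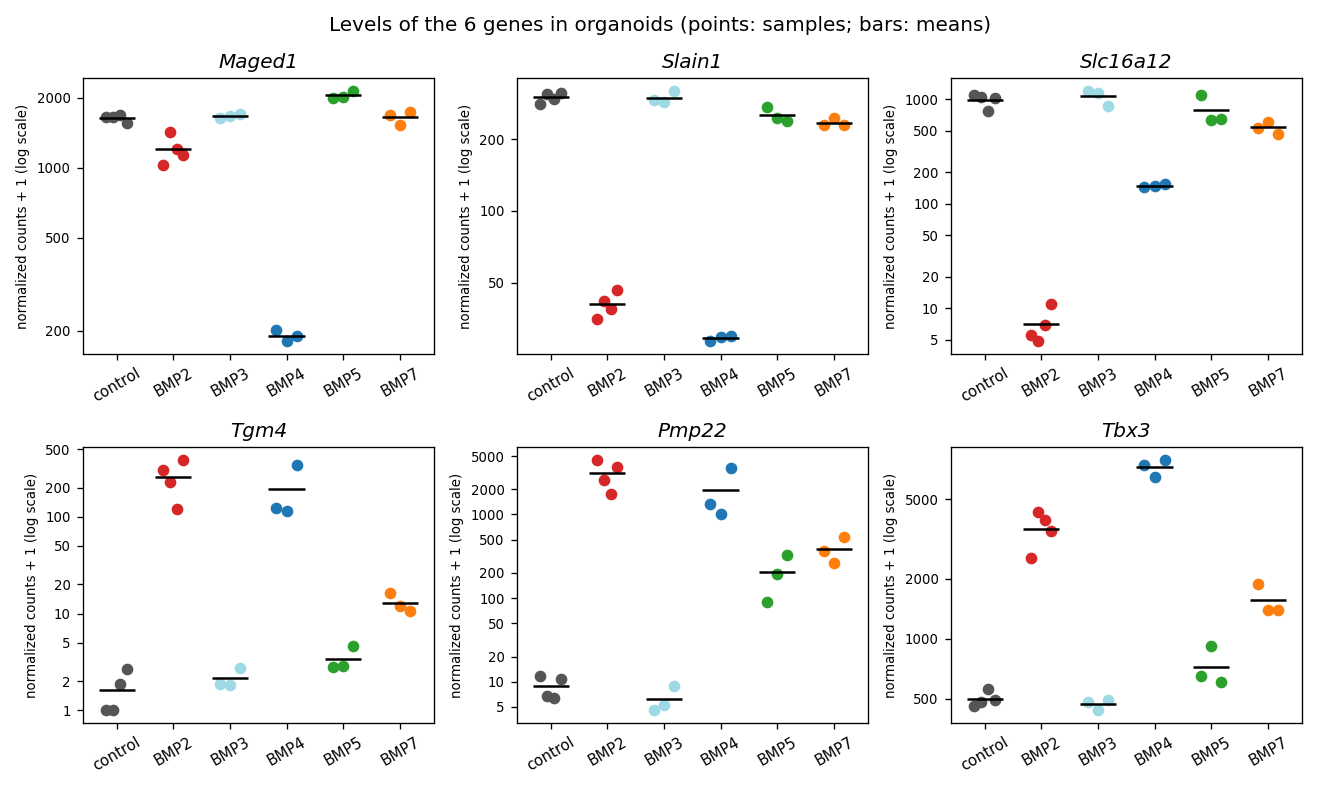
Normalized counts plus 1 of the 6 genes on log axes, with 1 point per sample and a bar for each group mean (control and BMP2 n = 4, the other groups n = 3). The BMP4 points are lowest for Maged1 and Slain1 and highest for Tbx3, the BMP2 points are lowest for Slc16a12, and BMP3 lies beside control in every panel.

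Maged1, a melanoma antigen family protein that acts as an adaptor in neurotrophin receptor signalling and in apoptosis, was lowest with BMP4. It read 201, 179 and 188 normalized counts with BMP4, against 1660, 1660, 1680 and 1560 in controls. Every BMP4 sample was below every other sample of the table, and the BMP4 mean was 8.66-fold lower than the control mean. BMP2 samples read 1030, 1430, 1210 and 1130, below all controls, with a mean 1.37-fold lower. BMP5 samples read 1990, 2010 and 2140, above all samples of all other groups and 1.25-fold above control in the mean. BMP3 at 1670 ± 30.0 and BMP7 at 1650 ± 115 (SD, n = 3 each) overlapped the controls. Maged1 was thus the member whose ligands lay on both sides of control, with BMP2 and BMP4 below and BMP5 above.

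Slain1, a microtubule-binding protein of growing plus ends, had both BMP4 and BMP2 far below control. BMP4 samples read 27.3, 28.5 and 28.7 normalized counts, and BMP2 samples read 34.1, 40.9, 37.6 and 45.6. Controls read 280, 309, 295 and 313, which made the means 10.6-fold and 7.57-fold lower. The 2 ligand groups did not overlap each other, and their means differed 1.40-fold. BMP5 at 252 ± 17.9 and BMP7 at 234 ± 9.54 (SD, n = 3 each) lay below all controls and overlapped each other. BMP3 at 299 ± 17.8 (SD, n = 3) had the mean of the controls, 299 ± 15.0 (SD, n = 4).

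Slc16a12, a creatine transporter of the monocarboxylate transporter family, was lowest with BMP2, and lower than control with BMP4 and BMP7 too. The BMP2 samples read 4.54, 3.84, 5.88 and 10.1 normalized counts, which were 4, 3, 5 and 8 reads. Controls read 1100, 1060, 775 and 1020, and the BMP2 mean was 162-fold lower. BMP4 samples read 145, 146 and 154, which was 6.67-fold below control and 24.4-fold above BMP2 in the means. BMP7 at 536 ± 68.5 (SD, n = 3) lay below all controls. BMP5 read 1090, 637 and 653, so that 1 sample was inside the control range and the others below it. BMP3 at 1067 ± 182 (SD, n = 3) overlapped control. The stem cell marker sums above were also lowest with BMP2 and next lowest with BMP4, and their part in the Slc16a12 values was not tested.

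Tgm4, a transglutaminase that crosslinks proteins and is best known from the prostate, was nearly unread without ligand. Controls had 0, 0, 1 and 2 reads, which is at or under the floor of 3 reads, or 2.66 normalized counts per sample. BMP2 samples read 303, 230, 121 and 387 normalized counts, and their mean was at least 97.7-fold higher than the floor. BMP4 samples read 122, 115 and 340, with a mean at least 72.2-fold higher, and they overlapped those with BMP2. Without BMP4 replicate VI, the sample at 340, the BMP4 mean was 118 and at least 44.5-fold higher. BMP7 samples read 15.4, 10.9 and 9.62, at least 4.49-fold higher in the mean and below all BMP2 and BMP4 samples. BMP5 samples had 2, 2 and 4 reads and BMP3 samples 1, 1 and 2, levels too low for a fold against control. Tgm4 split the ligands into BMP2 and BMP4 on one side and BMP3 and BMP5 on the other, with BMP7 between them.

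Pmp22, a tetraspan membrane protein of peripheral myelin that is also made in epithelia, had the widest range. BMP2 samples read 4490, 2610, 1760 and 3700 normalized counts, and BMP4 samples read 1320, 1010 and 3630. Controls read 10.7, 5.81, 5.32 and 9.91, so the BMP2 mean was 396-fold and the BMP4 mean 250-fold higher. The 2 ligands overlapped, and without BMP4 replicate VI the BMP4 mean was 1165, or 147-fold above control. BMP7 read 368, 260 and 540 (49.1-fold higher in the mean) and BMP5 read 87.9, 192 and 330 (25.6-fold), and these overlapped each other. BMP3 read 3.56, 4.22 and 7.88 and overlapped control, which left it as the ligand set apart, below all samples of the other 4. BMP3 samples also lay below all other ligand samples for Tgm4 and Tbx3, and above all of them for Slain1.

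Tbx3, a T-box transcription factor that mostly represses its targets, ordered the ligands without overlap. BMP4 samples read 7430, 6470 and 7880 normalized counts, BMP2 samples 2530, 4310, 3920 and 3480, and BMP7 samples 1890, 1400 and 1390. BMP5 samples read 651, 914 and 603, and controls read 460, 481, 562 and 495. The means were 14.5-fold, 7.13-fold, 3.12-fold and 1.45-fold above control in that order, and each step from BMP4 down to control was free of overlap. BMP3 at 481, 437 and 495 overlapped control. Tbx3 was the member for which BMP4 and BMP2 differed upwards, by 2.04-fold in the means.

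The replicates of a group differed from each other mostly in Pmp22 and Tgm4. BMP4 replicate VI was the highest of its group for both genes, and BMP2 replicate IV the lowest. Over 20 samples, deviations from the group means of the 2 genes had a Pearson r of 0.649 and a Spearman rho of 0.575, the highest of the 15 pairs of members examined. The values are those that chose the genes, and the points share libraries and scaling, so r is a description without a p. Without the 2 samples farthest from the median, r was 0.546. After rescaling to the same total it was 0.617, and with a replicate block it was 0.376.

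**Figure D3:**
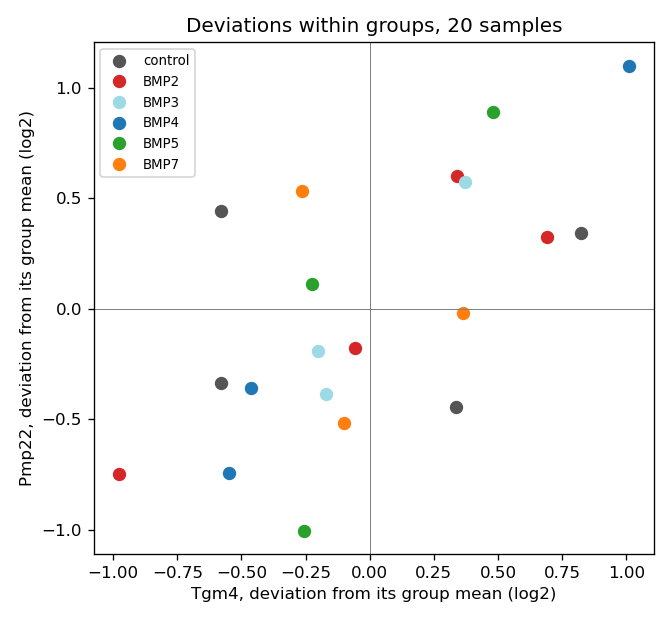
Deviation of each of 20 samples from its group mean for Tgm4 (x axis) and Pmp22 (y axis), in log2 units and coloured by group. BMP4 replicate VI is at the upper right with 1.01 and 1.10, and BMP2 replicate IV is at the lower left with -0.98 and -0.75.

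The genes with the most similar pattern over the 20 samples were found by Pearson r of log2(normalized count + 1), among genes with a mean of at least 10. The points share libraries, scaling and the 6 groups, so this r is a description too. Maged1 was followed most closely by Evl (r = 0.988), an actin regulator, with 494 normalized counts in control and 47.5 with BMP4, then by Trim44 (0.988) and Zfp275 (0.987). Slain1 was followed by Miga1 (0.995), a mitochondrial fusion factor, then by A4gnt (0.991) and Smo (0.990), the transducer of hedgehog signals. A4gnt, which makes a gland mucin glycan, had means of 150 in control, 0.318 with BMP2 and 0 with BMP4.

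Slc16a12 ran with Kif15 (r = 0.993) and Mad2l1 (0.993), a mitotic kinesin and a spindle checkpoint protein, and with Impa2 (0.992). Kif15 had means of 1510 in control, 34.0 with BMP2 and 342 with BMP4. Tgm4 ran with Nrbf2 (0.985), Sptlc2 (0.979), a subunit of serine palmitoyltransferase, and Nuak2 (0.977). Pmp22 ran with Lgals3 (0.990), a galectin of mature enterocytes that had means of 1478 in control, 63400 with BMP2 and 25833 with BMP4, and with Slc25a24 (0.990) and Perp (0.986). Tbx3 ran with Tbx3os2 (0.988), Tmem50b (0.974) and Msx1 (0.972), a homeobox gene among the known BMP targets. Tbx3os2 is a neighbouring antisense transcript with means of 0.222 in control and 316 with BMP4, and since the strand used in counting is not given, its reads and those of Tbx3 are uncertain.

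Against the BMP target Id1, r was 0.977 for Pmp22, 0.879 for Tbx3, 0.875 for Tgm4, -0.763 for Slain1, -0.700 for Slc16a12 and -0.471 for Maged1. Pmp22 thus had the largest r with Id1 of the 6 genes and Maged1 the smallest in size.

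The second table asked what Tgfb did to the same genes in separate samples. By limma with Benjamini-Hochberg adjustment, 5065 of 7880 genes (64.3%) were called at an adjusted p under 0.05, 31.4% of those tested higher and 32.9% lower. Of the 6 genes, 4 had a mean of at least 10 TPM and were tested, and 4 of 4 were called, 3 higher and 1 lower. Pmp22 and Tbx3 passed this minimum only through the Tgfb samples, so this count carries no weight, and their tests are given at minimums that their controls pass or with none.

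Pmp22 rose from a listed 0, 0.271 and 0.281 TPM in controls to 12.99, 27.2 and 50.7 TPM with Tgfb, a log2 difference of 4.54 ± 0.39 (limma SE, adjusted p = 5.79e-05) in the fit of all 55416 genes without a minimum, where 6.11% were called higher. The groups were far apart, but the Tgfb samples differed among themselves, and without Tgfb replicate III the Tgfb mean was 20.1 in place of 30.3 TPM. Slc16a12 fell from 22.2, 21.6 and 16.4 TPM to 4.60, 4.40 and 4.10 TPM, a log2 difference of -1.96 ± 0.15 (limma SE, adjusted p = 2.95e-05), or 4.60-fold in the means. All Tgfb samples were below all controls, as with BMP2, BMP4 and BMP7.

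Maged1 rose from 33.3, 33.1 and 30.2 TPM to 50.1, 43.2 and 44.7 TPM, a log2 difference of 0.50 ± 0.08 (limma SE, adjusted p = 0.00151). The Tgfb samples were all above the controls, the side on which BMP5 lay in the other table. Tbx3 rose from 6.71, 7.08 and 8.89 TPM to between 11.7 and 14.4 TPM, a log2 difference of 0.68 ± 0.13 (limma SE, adjusted p = 0.00449) at a minimum mean of 1 TPM, where 27.4% of 12959 genes were higher. These groups did not overlap either.

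Slain1 was below the minimum, at 8.12 ± 0.60 TPM in controls and 4.97 ± 0.34 TPM with Tgfb (SD, n = 3 each). All Tgfb samples were lower, and the two-sided exact permutation test gave p = 0.1, the smallest that 3 against 3 samples allow. At the minimum of 1 TPM, where 29.3% of genes were lower, limma gave Slain1 a log2 difference of -0.61 ± 0.09 (adjusted p = 0.00161). Tgm4 read 0.136, 0.0645 and 0.0191 TPM in controls and 0.114, 0.286 and 0.312 TPM with Tgfb. The groups overlapped, the exact permutation p was 0.2, and without a minimum limma gave an adjusted p of 0.588. Tgm4, at least 97.7-fold higher with BMP2, was thus not detectably different with Tgfb at these levels, and whether the responses to Tgfb and BMP2 differ was not tested, since the tables were scaled separately.

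**Figure D4:**
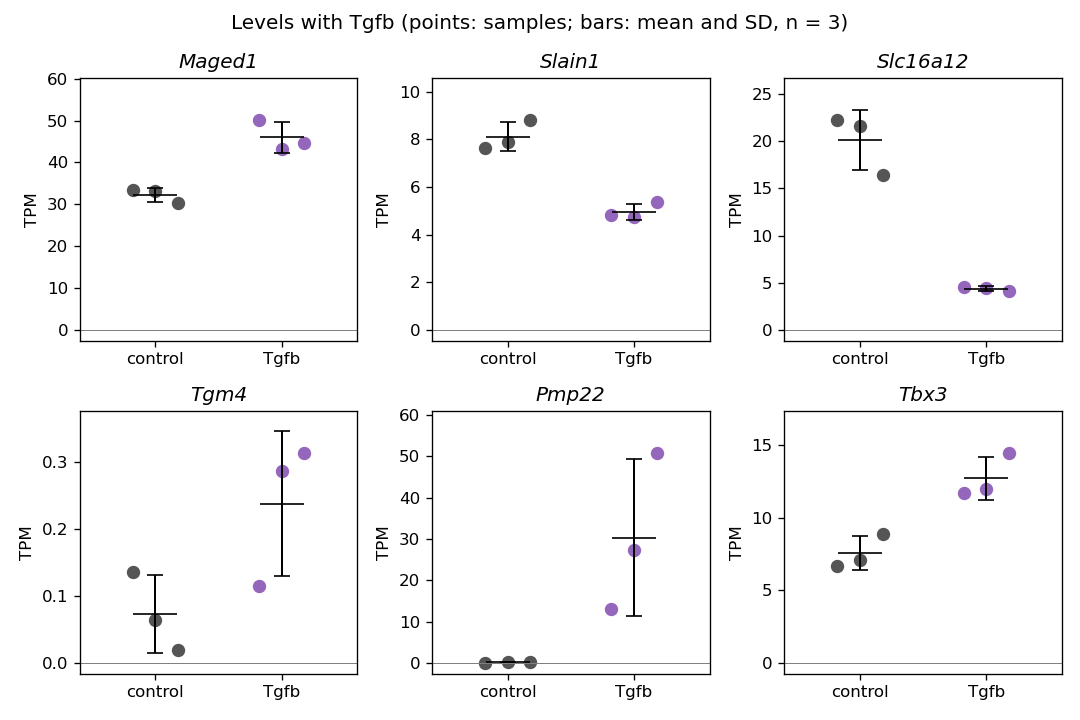
TPM of the 6 genes in 3 untreated and 3 Tgfb-treated organoid samples, with points for samples and bars for mean and SD. Slc16a12 and Slain1 lie lower and Maged1, Pmp22 and Tbx3 higher with Tgfb in all 3 samples, while Tgm4 stays under 0.32 TPM and overlaps.

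Stem cell markers summed to 2434 to 2881 TPM in the controls of this table and to 138 to 143 TPM with Tgfb. Their part in the lower Slc16a12 and Slain1 values was not tested.

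In the mesenchymal cells, Pmp22 read 300 TPM fresh and 146 TPM after immortalisation, and Maged1 read 258 and 205 TPM. Tbx3 read 7.19 and 5.19 TPM, while Slc16a12, Slain1 and Tgm4 were each under 0.48 TPM in both samples. These are levels of 1 sample each, with no test. Since Pmp22 and Maged1 are high there, mesenchymal markers were looked up in the organoids. Of 8 markers, Dcn and Lum had no entry in the BMP table, so no level was read there. Both were at 0 in every sample of the TGFb table. The summed list ran from 134 to 220 normalized counts in controls, 70.4 to 93.0 with BMP2, 27.3 to 47.8 with BMP4, 139 to 189 with BMP5, 147 to 242 with BMP3 and 69.9 to 108 with BMP7. In controls most of the sum was Vim, an intermediate filament gene, which read 34.5 ± 3.27 under BMP2 against 149 ± 28.5 untreated (SD, n = 4 each). The other markers went both ways with BMP2. Pdgfrb, a receptor, read 0.61 ± 0.71 under BMP2 against 9.39 ± 4.95 untreated, without overlap (SD, n = 4 each). Pdgfra, a fibroblast receptor, read 22.95 ± 10.4 under BMP2 against 0.667 ± 0.852 untreated (SD, n = 4 each). Col1a1, a fibrillar collagen, read 15.9 ± 4.26 under BMP2 against 5.93 ± 9.08 untreated, with overlap (SD, n = 4 each). In the TGFb table the summed list was 5.13 to 8.23 TPM in controls and 7.16 to 9.50 TPM with Tgfb. Col1a1 read at most 0.00851 TPM in controls and 0.434 to 0.733 TPM with Tgfb. Pdgfrb went the other way, at 0.244 to 0.261 TPM in controls and 0.0194 to 0.030 TPM with Tgfb.

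Since Pmp22 is a myelin gene, 7 Schwann and glial markers were summed too. The sum ran from 5914 to 6952 normalized counts in controls, 6079 to 6846 with BMP3, 7113 to 8834 with BMP7, 7252 to 8283 with BMP5, 9654 to 10984 with BMP4 and 12916 to 15042 with BMP2. It was 69.1 to 75.1 TPM in the controls of the TGFb table and 92.6 to 103.5 TPM with Tgfb. Most of it was Erbb3, a neuregulin receptor that epithelia also express, which read 10738 ± 1129 under BMP2 against 4710 ± 404 untreated (SD, n = 4 each). Sox10, the defining transcription factor of these cells, was at 0 in all samples of the BMP table, and S100b, a calcium-binding protein, read 27.0 ± 6.51 under BMP2 against 2.75 ± 1.68 untreated (SD, n = 4 each). The part of mesenchymal and glial markers in the Pmp22 and Maged1 values was not tested. Epithelial markers were present in all groups, 8 of 8 above 0.

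Relatives of the 6 genes were counted by limma against control, beside the share of all 14746 genes called. With BMP2, 36.8% of all genes were higher and 38.4% lower. The shares were 33.7% and 31.4% for BMP4, 16.5% and 9.87% for BMP5, 19.2% and 13.2% for BMP7, and 0% and 0% for BMP3. Of 56 relatives in 6 family lists, 30 were tested in the BMP table, and 13 were higher and 8 lower with BMP2 and 10 and 11 with BMP4. With BMP5 8 were higher and 3 lower, or 5 higher without BMP5 replicate III. With BMP7 7 were higher and 3 lower, or 11 higher with a replicate block. With Tgfb 19 were tested, and 12 were higher and 4 lower, beside 31.4% and 32.9% of all 7880 genes tested there. In either table, a relative low in controls could pass the minimum mean of 10 through its ligand samples alone. The count with Tgfb therefore carries no weight, and the counts with the BMP ligands are a description.

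Of the MAGE family, 4 of 7 were tested, and 3 were lower with BMP4, with a median log2 difference of -0.88 against 0.04 for all genes. Maged2, a paralog of Maged1 and named after its values were seen, fell by 0.80 with BMP4 and rose with BMP2 by 0.93 ± 0.13 (limma SE, adjusted p = 3.93e-06) and with BMP5 by 0.72. Mageh1 fell by 1.15 with BMP4 (adjusted p = 0.00541 by limma), a call lost without BMP4 replicate VI (adjusted p = 0.0574). Magee1 fell by 0.96 with BMP4 (limma adjusted p = 0.0488), and the call was lost in 11 alternatives, among them the replicate block (adjusted p = 0.0756). Nsmce3, a subunit of the SMC5/6 complex with the highest mean of the list, read 402 ± 32.6 in controls (SD, n = 4) and was called with no ligand.

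All 9 microtubule plus-end genes were tested, and 6 were higher and 1 lower with BMP2, with a median log2 difference of 0.75 against -0.03 for all genes. With BMP4, 3 were higher and 3 lower, with a median of 0.03 against 0.04 for all genes. Slain2, the paralog of Slain1 and named after its values were seen, rose with BMP2 by 0.83 ± 0.09, with BMP4 by 0.98 ± 0.09 and with Tgfb by 0.58 ± 0.08 (limma SE, adjusted p = 5.43e-08, 3.57e-08 and 0.000468). These were ligands with which Slain1 was lower. Clasp1, which steadies microtubules, rose with BMP2 by 2.04 ± 0.10, and Mapre3, an end-binding protein, rose with BMP4 by 2.54 ± 0.30 (limma SE). Mapre1, with the highest mean, rose with BMP2 by 0.53, and this call was lost at the same total (limma adjusted p = 0.426).

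Of the SLC16 family, 10 of 13 were tested. With BMP2, 2 were higher and 6 lower, with a median log2 difference of -1.30, and with BMP4, 5 were higher and 3 lower, with a median of 0.37. Slc16a6 fell by 4.27 ± 0.20 with BMP2 (limma SE, adjusted p = 1.6e-12), from 783 to 40 normalized counts, and read 844 ± 266 with BMP4 (SD, n = 3). Slc16a1, the lactate transporter with the highest mean, fell by 1.29 ± 0.15 with BMP2 (limma SE). Slc16a9, a carnitine transporter, rose with BMP4 by 4.38 ± 0.64 (limma SE, adjusted p = 7.37e-06), from 19.2 to 327 normalized counts.

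Of 7 other transglutaminases, 2 were tested and both fell with BMP4, on the opposite side from Tgm4. Tgm2, the widely expressed tissue transglutaminase, fell by 2.32 ± 0.20 with BMP4, fell by 1.12 ± 0.19 with BMP2 and rose with Tgfb by 1.16 ± 0.07 (limma SE, adjusted p = 1.39e-08, 2.33e-05 and 1.58e-05). Tgm1 fell by 1.88 ± 0.38 with BMP4 (limma SE), from 14 to 2.75 normalized counts.

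All 4 relatives of Pmp22 were higher with BMP2, BMP5, BMP7 and Tgfb, and 2 of 4 were higher with BMP4. The count with Tgfb carries no weight, since a relative low in controls could pass the minimum through its Tgfb samples alone. Emp1, an epithelial membrane protein, rose with BMP2 by 3.79 ± 0.17, with BMP4 by 2.48 ± 0.18 and with Tgfb by 3.27 ± 0.16 (limma SE, adjusted p = 7.22e-13, 1.51e-09 and 5.52e-06). Perp, a desmosome protein also among the genes most like Pmp22, rose with all 4 of BMP2, BMP4, BMP5 and BMP7, by 0.96 to 2.03. Emp3 rose with BMP2 by 4.65 ± 0.36 (limma SE) and was not called with BMP4 (0.60 ± 0.39 limma SE, adjusted p = 0.188) at 33.4 ± 19.7 normalized counts (SD, n = 3), and the difference between BMP2 and BMP4 was not tested.

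Of 16 other T-box genes, 1 was tested, Mga, at 1990 normalized counts in controls, and it was called with no ligand.

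**Figure D5:**
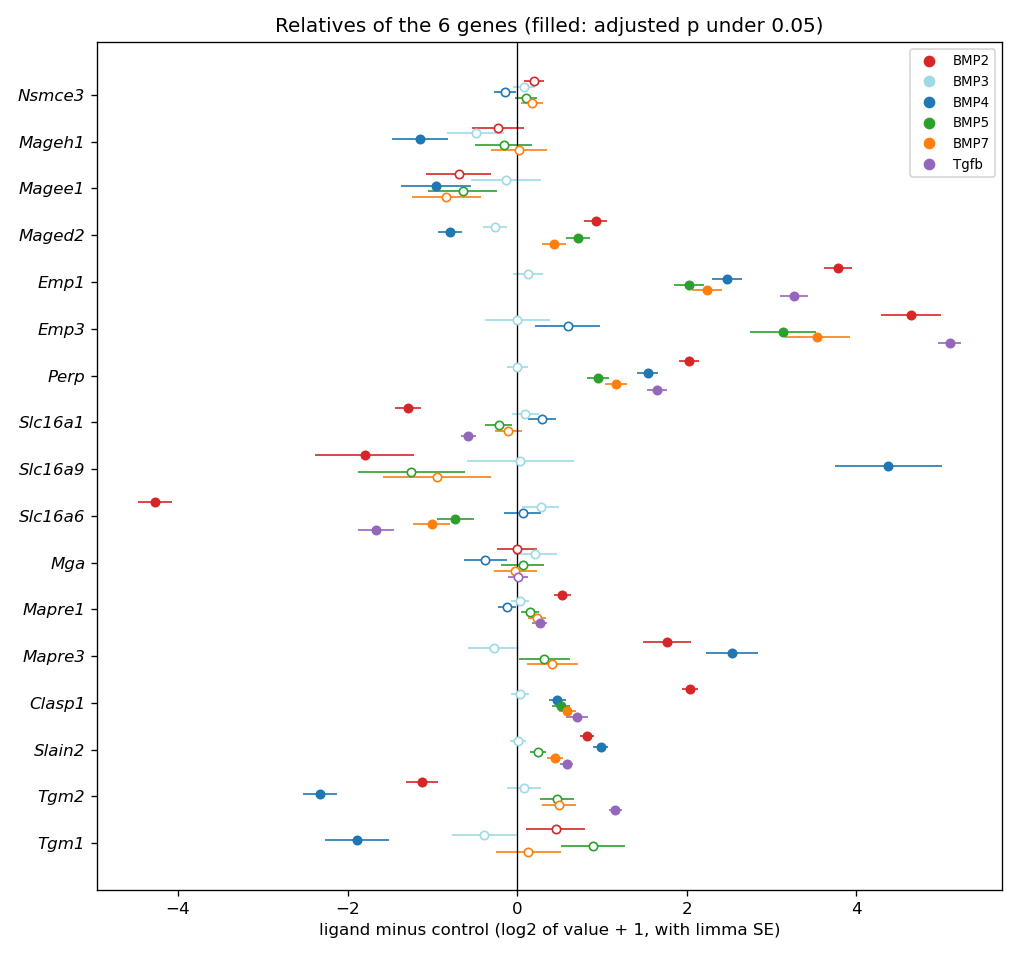
Log2 differences from control (log2 of value plus 1) with limma standard errors for relatives of the 6 genes, by ligand, filled where the adjusted p is under 0.05. Slain2 and Mapre3 lie right of 0 with BMP2 and BMP4, Tgm2 and Tgm1 lie left of 0 with BMP4, and Emp1 is filled right of 0 with every ligand but BMP3.

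Known targets of the pathways were counted for comparison. Of 12 BMP targets, 11 were tested in the BMP table, and BMP2 had 8 higher and 2 lower, BMP4 8 higher, BMP5 6, BMP7 9 and BMP3 0. The shares of all genes called higher were 36.8%, 33.7%, 16.5%, 19.2% and 0% in that order. Id1 rose by 4.41 ± 0.18 with BMP2, 4.30 ± 0.19 with BMP4, 3.80 ± 0.19 with BMP7 and 2.65 ± 0.19 with BMP5 (limma SE). Id1 was higher with Tgfb too, at 49.5 to 79.2 TPM against 7.7 to 9.7 TPM in the controls of that table. Of 12 TGFb targets, 11 were tested, and BMP2, BMP5 and BMP7 each had 9 higher and 1 lower, BMP4 had 6 higher and BMP3 had 0. Targets low in controls could pass the minimum mean of 10 through ligand samples alone, so neither target count carries weight. Msx1 did so among the BMP targets, with means of 4.75 normalized counts in control and 456 with BMP4. For the 6 genes, BMP2 and BMP4 lay on the same side of control for all of them.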

How the data were processed

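Messenger RNA was sequenced from 20 organoid samples of the BMP table, 6 of the TGFb table and 2 mesenchymal samples. Per the submitters' processing notes, the tools were Trim Galore, Salmon and DESeq2 and the build was GRCm39. The BMP table holds a deposited signal, counts divided by 1 size factor per sample, as read from the values: 100% of 180721 values up to 20 reads were whole multiples of 1 read within 0.1 read. It keeps 3 significant digits, so the 21% of values above 999 reads are rounded. The TGFb and mesenchymal tables hold TPM made by the authors, since each deposited column sums to 1000000, and their depth is unknown. Tables were scaled separately, and tests stayed within a table.

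The log2(value + 1) data were fitted in limma 3.58.1 (R 4.3.3) with an intensity trend, for genes with a mean of at least 10; tests were two-sided, with Benjamini-Hochberg adjustment over all genes tested and a threshold of 0.05. The 6 BMP groups entered 1 fit. Alternatives used edgeR 4.0.16 and DESeq2 1.42.0 on recovered reads, other pseudocounts, minimums and scalings, each sample left out, and a replicate block. The fits were tested on simulated data. A fold against a group at or under 3 reads is a lower bound, and it covers counting error only.

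The labels do not say that replicates were separate cultures, so p-values measure the spread between these samples. Deviations from group means of same-numbered samples were correlated with control for BMP3 (0.281 to 0.553), BMP4 (0.19 to 0.225), BMP5 (0.158 to 0.262) and BMP7 (0.236 to 0.294). They ran from 0.0182 to 0.421 for BMP2 and from -0.0192 to 0.141 for Tgfb. Samples of different numbers were not compared, so these values cannot settle whether the numbers pair the samples. The main fits treated the samples as unpaired, and the replicate block was an alternative.

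The members and lists were chosen with earlier results of these data known. Besides the members, the named genes are the 3 most correlated with each member, per list the gene of highest mean and up to 2 called genes with the largest difference with any BMP ligand, and the reference gene Id1. A gene that the rule also names is not reported here. Maged2, Slain2, Perp, the single cell type markers given with values, and the alternatives that combine a minimum of 1 TPM with a block or a left-out sample, were added after seeing the data. Promoter sequences are from RefSeq, matched by symbol.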

Additional observations from a re-analysis of the deposited data

Results flagged for a closer look

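Maged1 was the member with ligands on both sides of control. On the log2(value + 1) scale it was -0.46 with BMP2 and -3.11 with BMP4, every sample below all controls, and 0.32 with BMP5, every sample above all controls of the same table. With Tgfb it was 0.50 against the controls of its own table, again with every sample above. The difference between these effects was not tested.

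Among the 12 groups of 4 samples examined for the 6 genes, 1 control sample stood apart, replicate VI for Maged1 at 1560 normalized counts. Its gap to the next sample was 0.833 of the range of the 4 controls, just above Dixon's critical value for 4 samples. Chance alone marks about 1 in 20 groups.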

How the results depend on the processing

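The ligand farthest from the other 4 was the same for 6 of 6 genes in all 21 alternatives examined. The distances moved by more than 1 pooled SD between replicates with a pseudocount of 10 for Slain1 (-2.21), Slc16a12 (-5.02), Tgm4 (3.20) and Pmp22 (-5.68), at the same total for Maged1 (-3.34), Slain1 (-2.74) and Tbx3 (2.38), and with quantile normalization for Slain1 (-2.35) and Slc16a12 (-5.88). Of 366 differences of the members from control, 337 moved by less than that SD and 1 of those without overlap between the groups changed sign. It was Tgm4 with BMP5, at 2 to 4 reads, which was -0.022 with quantile normalization in place of 1.16.

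All 80 alternative values of the members with Tgfb kept their direction and their side of the threshold. Tgm4 had 0 of these, being fitted only without a minimum, and Slain1 had 8. Alternatives in which a member fell under the minimum gave no value and are not among them. Leaving out 1 sample in turn left 2 to 4 members called, 2 without Tgfb replicate III, since Pmp22 and Tbx3 then fell under the minimum of 10 TPM. No member was left (0) at a minimum of 50 TPM, where 1749 genes were called. With a minimum of 1 TPM and a replicate block 7613 genes were called. With the replicate block alone, 4 members and 5414 genes were called with Tgfb, 13164 genes by the F-test, 10582 with BMP4, 5738 with BMP5 and 6689 with BMP7. The block changed no other call count by over 1.5 times, except relatives higher with BMP7. The BMP5 count ran from 2517 to 4301 on leaving out 1 sample in turn, at 2517 without BMP5 replicate III and 2531 without VI, and the BMP3 count from 0 to 1, with 1 by DESeq2. The higher and lower calls were 3627 and 7783 with BMP2 and 3100 and 6864 with BMP4 at the same total, against 5420 and 5657, and 4964 and 4633, as deposited; with BMP7 they were 2587 and 2725 against 2833 and 1940, and with BMP5 2397 and 2413 under quantile normalization against 2429 and 1455. Where a value changed, the cause was not tested. TPM keeps no depth, which limits Tgm4 and Slain1 there.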
